A study of Mus musculus with 12 samples.

Results

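The genes described here carry the insulin signal inside liver cells: Insr, Irs1, Irs2, Grb14, Pik3r1, Pdpk1, Akt1, Akt2, Foxo1 and Foxo3. They were followed in 12 mouse livers, 6 without phosphatidylcholine transfer protein (PC-TP, encoded by Pctp) and 6 wild type. A probe set, the group of probes that reports a transcript on an Affymetrix array, was assigned to a member when the platform annotation gave that gene as its only symbol. This found all 10 genes, out of 12393 on the array, with 21 of 22626 probe sets. Of the members, 7 had several probe sets and 3 had 1. Where there were several, the brightest over all arrays represents the gene, and the others are given beside it.

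The knockout animals were Pctp-/- males and the controls wild-type males, littermates of the FVB/NJ strain. All ate a diet with 0.2% fenofibrate, a drug that activates the nuclear receptor PPARα, for 7 days from 8 weeks of age, and livers were taken at 9 weeks. Every difference below is therefore one between genotypes under the drug, and livers without it were not analysed here. No source used here gives the feeding state at collection. Each liver had an array of its own, and the number of arrays limits the precision.

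Insulin binds its receptor, a tyrosine kinase made from Insr, which phosphorylates the adaptor proteins IRS1 and IRS2. These recruit phosphatidylinositol 3-kinase, whose lipid product lets PDK1 activate the kinase AKT, and AKT phosphorylates the transcription factors FOXO1 and FOXO3 and so keeps them out of the nucleus. In the fasted liver the FOXO proteins are nuclear and raise genes of glucose production, and Irs2 is itself known as a gene that insulin represses through FOXO1.

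Levels are the authors' intensities on a linear scale. Differences are knockout minus wild type in log2(intensity + 16), and folds are computed from these, so they understate the change of dim genes. Adjusted p-values come from limma with Benjamini-Hochberg adjustment over all probe sets, and a gene is said to have risen or fallen at an adjusted p under 0.05. Pctp, the targeted gene, read between 66.5 and 99.7 in knockout and between 2737 and 2954 in wild-type livers.

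Of the members, Pik3r1 rose, Foxo3 and Irs2 fell, and the other genes did not pass by their brightest probe set. The 3 calls among 10 genes compare with 11.7% of all genes on the array, 6.46% called higher and 5.24% called lower. The median difference was -0.06, against 0.01 over all genes. Over the probe sets, 4 of 21 were higher and 5 lower, against 6.82% and 5.15% of all probe sets. The calls beyond Pik3r1, Foxo3 and Irs2 belong to dimmer probe sets of Foxo1, which fell, and of Akt1, which rose. The groups did not overlap for 3 genes, Pik3r1, Foxo3 and Akt2, by the brightest probe set, against 6.8% of all genes. In so short a list these shares are a description and were not tested.

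**Figure D1:**
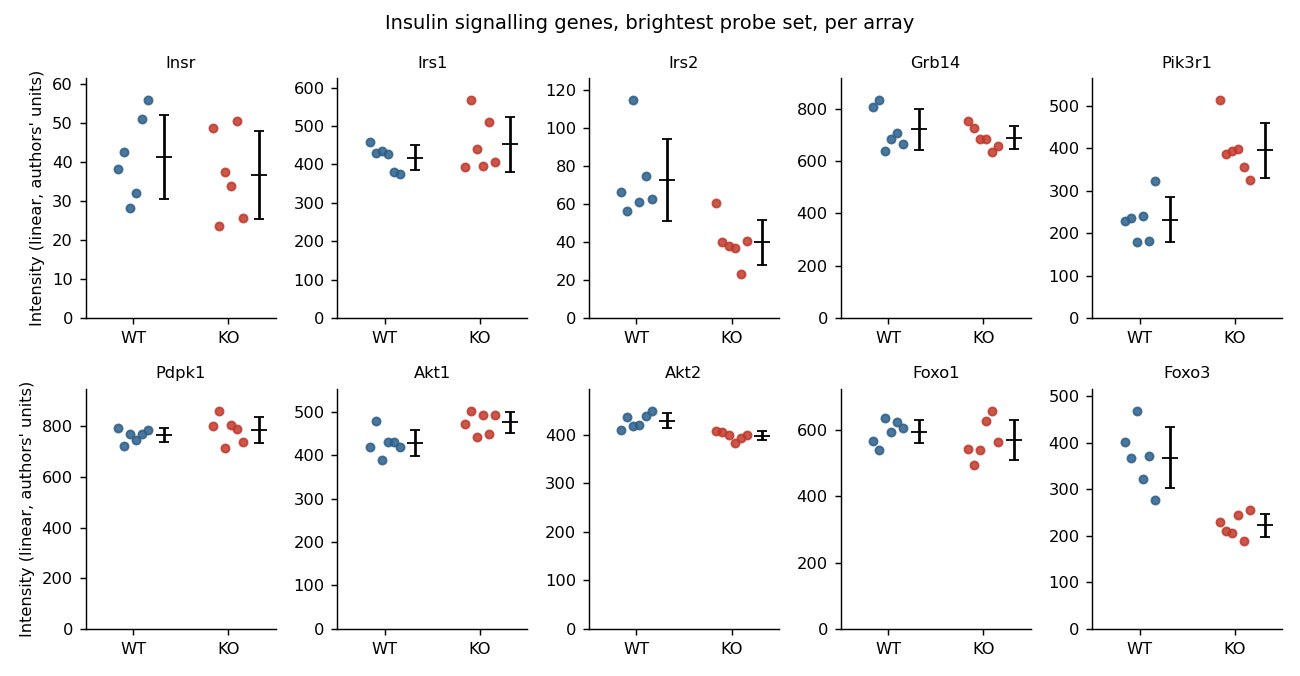
Intensity of the 10 insulin signalling genes by their brightest probe set in wild-type (WT) and Pctp knockout (KO) livers, 1 point per array, with mean and SD (n = 6 per genotype) and each vertical axis starting at 0. Foxo3 and Irs2 sit lower and Pik3r1 higher in the knockout, while the points of Insr, Irs1, Grb14, Pdpk1 and Foxo1 intermingle.

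The receptor and its adaptors come first in the pathway. The brighter probe set of Insr was dim, at 23.7 to 50.5 (median 35.8) in knockout and 28.2 to 55.9 (median 40.3) in wild-type livers. The groups covered much the same range. The difference was -0.13 (95% interval -0.46 to 0.20, adjusted p = 0.651), an interval wide enough to hold a moderate fall. The other probe set of Insr had a mean of 8.90 in knockout and 8.79 in wild-type livers.

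Irs1, an insulin receptor substrate, read 392.4 to 567.1 (median 423.8) in knockout and 375.1 to 459.0 (median 428.6) in wild-type livers. The groups overlapped, and knockout replicates 2 and 5 were the highest of all arrays. The difference of 0.10 had a 95% interval of -0.10 to 0.30 and did not pass (adjusted p = 0.541).

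Irs2, the other main substrate of liver, read 60.3, 39.9, 38.0, 37.1, 23.4 and 40.3 in knockout replicates 1 to 6. It read 66.2, 56.4, 114.6, 61.2, 74.5 and 62.5 in wild-type replicates 1 to 6. Knockout replicate 1 alone reached into the wild-type range, and wild-type replicate 3 stood above all other arrays. The mean was 39.8 ± 11.8 (SD, n = 6) without PC-TP and 72.6 ± 21.5 (SD, n = 6) with it, a 1.58-fold fall (log2 difference -0.66, SE 0.160, limma adjusted p = 0.0181). Leaving out any single array gave an adjusted p of 0.0112 to 0.0386. Without both wild-type replicates 3 and 5 the difference was -0.50 (adjusted p = 0.0673), short of the threshold. The gene rests on 1 dim probe set: apart from wild-type replicate 3 every value lay below the median intensity of the arrays (84.0 to 91.1). The platform annotation names this probe set Irs2 but gives no accession for it, so its place in the Irs2 transcript was not checked.

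The windows around the starts of both substrate genes are shown beside those of Igfbp1 and G6pc, liver genes known for an insulin response sequence, because the core letters of that sequence occur in all of them. Each is 300 bases of RefSeq sequence (GRCm38.p6), 250 before the annotated start and 50 from it on, written 5′ to 3′ on the strand of the gene. Capitals mark CAAAACA or its reverse complement TGTTTTG (the core of the insulin response sequence), CACGTG (an E-box) and TGACCT (a nuclear receptor core, AGGTCA on the other strand).
Irs1, chr1:82291390-82291689, minus strand: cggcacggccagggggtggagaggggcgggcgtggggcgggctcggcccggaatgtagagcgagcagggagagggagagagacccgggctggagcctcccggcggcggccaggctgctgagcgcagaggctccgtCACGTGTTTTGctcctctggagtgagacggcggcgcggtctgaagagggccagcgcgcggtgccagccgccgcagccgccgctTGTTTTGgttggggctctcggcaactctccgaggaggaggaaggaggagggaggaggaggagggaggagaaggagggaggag
Irs2, chr8:11008880-11009179, minus strand: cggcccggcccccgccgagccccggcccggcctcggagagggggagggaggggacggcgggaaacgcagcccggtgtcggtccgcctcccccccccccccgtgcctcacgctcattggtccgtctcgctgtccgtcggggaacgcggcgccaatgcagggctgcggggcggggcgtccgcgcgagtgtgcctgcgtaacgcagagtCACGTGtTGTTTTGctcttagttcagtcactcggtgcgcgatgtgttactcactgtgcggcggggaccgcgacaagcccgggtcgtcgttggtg
Igfbp1, chr11:7197537-7197836, plus strand: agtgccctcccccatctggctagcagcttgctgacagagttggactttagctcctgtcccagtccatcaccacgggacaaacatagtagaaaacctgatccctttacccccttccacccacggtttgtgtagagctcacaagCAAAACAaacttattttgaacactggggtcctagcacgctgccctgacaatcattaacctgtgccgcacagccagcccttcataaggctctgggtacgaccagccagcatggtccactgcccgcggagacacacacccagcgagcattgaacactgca
G6pc, chr11:101367466-101367765, plus strand: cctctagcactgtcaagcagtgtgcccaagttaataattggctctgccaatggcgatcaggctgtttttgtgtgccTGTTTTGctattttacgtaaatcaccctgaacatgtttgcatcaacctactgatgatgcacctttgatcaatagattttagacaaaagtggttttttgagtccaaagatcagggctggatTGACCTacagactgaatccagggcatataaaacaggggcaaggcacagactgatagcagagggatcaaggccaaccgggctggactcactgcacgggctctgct

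In Irs2 the E-box begins 44 bases and TGTTTTG 37 bases before the start. In Irs1 an E-box begins 115 bases before the start and overlaps a TGTTTTG, and another TGTTTTG lies nearer to the start. CAAAACA on either strand occurred in 6.28% of the 32851 windows of this length in the table, CACGTG in 7.15% and AGGTCA in 16.3%. The FOXO core GTAAACA (3.65% of windows, both strands) was found in a window of Akt1, and the cAMP response element TGACGTCA (1.79%) in no member's. Windows were given for 9 of the members, and those of Foxo1, Foxo3, Pik3r1, Akt2 and Grb14 held none of these letters, nor did the window of Pck1, another liver gene that insulin represses. A match describes letters and not binding, and the same core stands in Irs2, which fell, and in Irs1, which did not pass.

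Grb14, an adaptor that binds the activated receptor and inhibits its kinase, read 633.1 to 751.3 (median 684.3) in knockout and 637.8 to 832.1 (median 695.3) in wild-type livers. The groups overlapped over most of their range. The difference was -0.06 with a 95% interval of -0.22 to 0.09 (adjusted p = 0.647).

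Pik3r1 encodes p85α, the regulatory subunit that binds IRS proteins and holds the catalytic subunit of phosphatidylinositol 3-kinase. Its brightest probe set read 513.5, 386.0, 393.6, 398.7, 355.9 and 325.0 in knockout replicates 1 to 6. The same probe set read 229.9, 234.9, 178.6, 241.5, 182.0 and 324.3 in wild-type replicates 1 to 6. All knockout arrays were above all wild-type arrays, although replicate 6 of each genotype nearly met. The mean was 395.4 ± 64.2 (SD, n = 6) without PC-TP and 231.9 ± 52.9 (SD, n = 6) with it, a 1.67-fold rise (log2 difference 0.74, SE 0.136, limma adjusted p = 0.00483).

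The other probe sets of Pik3r1 moved the same way, also without overlap. Probe set 1425515_at read 109.4 to 126.3 (median 121.1) in knockout and 53.7 to 85.9 (median 76.1) in wild-type livers, a 1.56-fold rise (adjusted p = 0.00159). Probe set 1451737_at rose less, 1.22-fold, at 133.7 to 174.2 (median 141.6) against 106.8 to 122.8 (median 120.3) (adjusted p = 0.0121). The authors' deposited table lists 1425514_at and 1425515_at with folds of 1.71 and 1.63. Pik3r1 lies on chromosome 13 from 101680761 to 101768217 (GRCm38.p6). Which transcript each probe set reports was not analysed here.

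Pdpk1, which encodes the AKT kinase PDK1, read 715.7 to 860.9 (median 795.0) in knockout and 720.6 to 794.4 (median 770.6) in wild-type livers. The groups overlapped. The difference of 0.04 had a narrow 95% interval of -0.07 to 0.15 (adjusted p = 0.712). Its dimmer probe set was at -0.25 (adjusted p = 0.0930) and did not pass either, so the probe sets of Pdpk1 differed in sign.

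The AKT genes differed in opposite directions, neither past the threshold by its brightest probe set. Akt1, the broadly expressed isoform, read 441.9 to 501.8 (median 482.4) in knockout and 388.1 to 479.4 (median 424.4) in wild-type livers, a difference of 0.15 (95% interval 0.03 to 0.27, adjusted p = 0.102). The groups overlapped through wild-type replicate 2. The dimmer probe set of Akt1 read 147.9 to 182.3 (median 158.9) in knockout and 130.5 to 155.3 (median 135.6) in wild-type livers and rose by 0.20 (adjusted p = 0.0473). Akt2, the main isoform in insulin's control of liver metabolism, read 382.3 to 408.3 (median 398.9) in knockout and 408.8 to 449.1 (median 429.3) in wild-type livers. Every knockout array was below every wild-type array, by a thin margin, with a difference of -0.10 (95% interval -0.19 to -0.02, adjusted p = 0.114). The dimmer Akt2 probe set was at -0.05 (adjusted p = 0.751).

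Within each array, the log2 value of Akt2 minus that of Akt1 lay between -0.35 and -0.14 in knockout and between -0.13 and 0.10 in wild-type livers. The groups came close but did not overlap. Akt2 alone did not overlap either, nor did 6.8% of all genes, and the share over pairs of genes was not computed. The shift of -0.25 had a two-sided exact permutation p of 0.00216, the smallest that 6 arrays against 6 can give, and 0.00433 after adjustment over 4 such differences. By construction this shift is the Akt2 difference above less that of Akt1, neither of which passed, so it is no further observation. It is a shift between probe sets and does not show which of the AKT genes changed, and the size of the value itself depends on the probes. The 5′ minus 3′ difference of single control genes also shifted with genotype. It moved by 0.39 for beta-actin, 0.32 for pyruvate carboxylase and 0.11 for Gapdh, and by -0.02 for the transferrin receptor. The part of RNA quality in the AKT shift was not tested.

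Foxo3, a forkhead transcription factor, read 230.2, 210.0, 206.8, 244.5, 187.9 and 254.4 in knockout replicates 1 to 6. It read 401.6, 367.6, 468.0, 321.8, 371.5 and 277.7 in wild-type replicates 1 to 6. Every knockout array was below every wild-type array. The mean was 222.3 ± 25.2 (SD, n = 6) without PC-TP and 368.0 ± 65.5 (SD, n = 6) with it, a 1.60-fold fall (log2 difference -0.68, SE 0.111, limma adjusted p = 0.00289). Probe set 1434832_at fell 1.64-fold, also without overlap, at 134.4 to 206.5 (median 170.8) in knockout against 223.4 to 355.6 (median 296.2) in wild-type livers (adjusted p = 0.00257). In the authors' deposited table these probe sets have folds of -1.66 and -1.7. The remaining, very dim Foxo3 probe set had a mean of 8.21 in knockout and 7.56 in wild-type livers. Foxo3 lies on chromosome 10 from 42181845 to 42276695 (GRCm38.p6).

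Foxo1, the forkhead factor best known for raising glucose production genes in liver, gave probe sets that disagreed. The brightest, 1416981_at, read 495.3 to 657.1 (median 552.6) in knockout and 540.1 to 635.4 (median 600.7) in wild-type livers. The wild-type range lay inside the knockout range, and the difference of -0.06 did not pass (95% interval -0.21 to 0.09, adjusted p = 0.631). Probe set 1416983_s_at read 335.0, 317.6, 288.8, 371.8, 295.1 and 325.4 in knockout replicates 1 to 6. It read 484.3, 475.5, 602.5, 542.1, 627.5 and 672.0 in wild-type replicates 1 to 6. This probe set fell 1.72-fold without overlap (log2 difference -0.78, SE 0.0913, limma adjusted p = 0.000538). Probe set 1416982_at fell 1.40-fold, again without overlap, at 233.5 to 278.4 (median 251.0) in knockout against 323.2 to 418.9 (median 353.8) in wild-type livers (adjusted p = 0.00201).

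The remaining Foxo1 probe set was near the floor of the arrays, with means of 4.17 and 5.02. The authors' deposited table lists the probe sets that fell, with folds of -1.76 and -1.43, and not the brightest. In Affymetrix naming, _s_at marks probes shared by several transcripts, and the other falling probe set carries no such mark. With the mean of all its probe sets in place of the brightest, Foxo1 was at -0.35 (adjusted p = 0.00270). Whether Foxo1 is called lower therefore depends on the probe set. Foxo1 lies on chromosome 3 from 52268337 to 52350109 (GRCm38.p6).

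Within arrays, Foxo3 minus Foxo1 carries the same dependence by construction. Its mean shift is the Foxo3 difference above less that of the Foxo1 probe set used, so it is no further observation. Foxo3 minus Foxo1 shifted by -0.62 with the brightest Foxo1 probe set (two-sided exact permutation p = 0.00216, adjusted 0.00433). With 1416982_at the shift was -0.19 (exact permutation p = 0.277, adjusted 0.369). With 1416983_s_at it was 0.10 (exact permutation p = 0.591, adjusted 0.591). The comparisons with the dimmer Foxo1 probe sets were chosen after the values were seen.

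**Figure D2:**
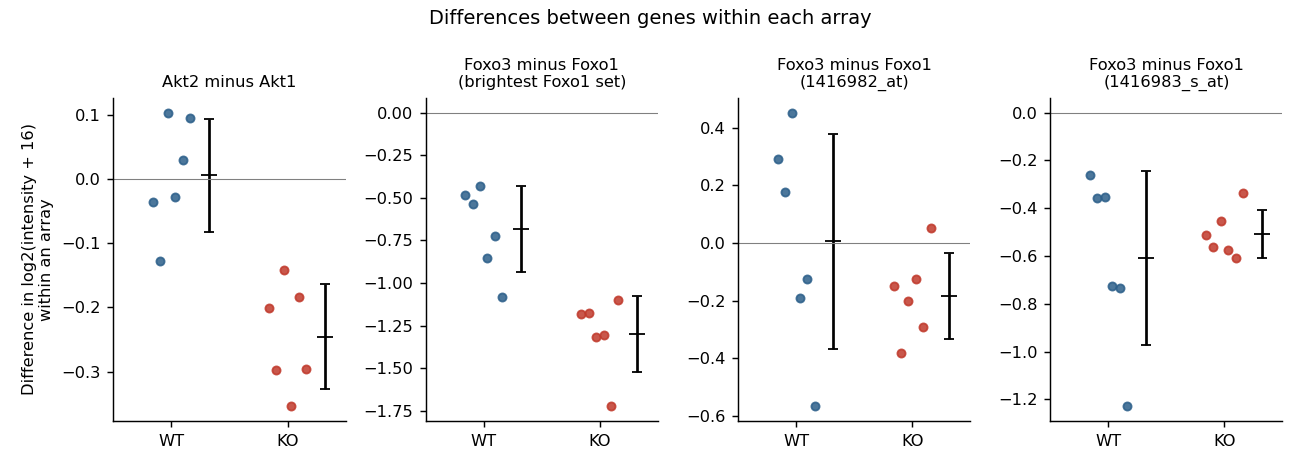
Difference in log2(intensity + 16) between probe sets within each array, for Akt2 minus Akt1 and for Foxo3 minus each of 3 Foxo1 probe sets, in wild-type (WT) and knockout (KO) livers, 1 point per array with mean and SD (n = 6 per genotype) and a vertical axis of its own per panel. The groups separate for Akt2 minus Akt1 and for Foxo3 against the brightest Foxo1 probe set, and overlap for Foxo3 against the other Foxo1 probe sets.

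**Figure D3:**
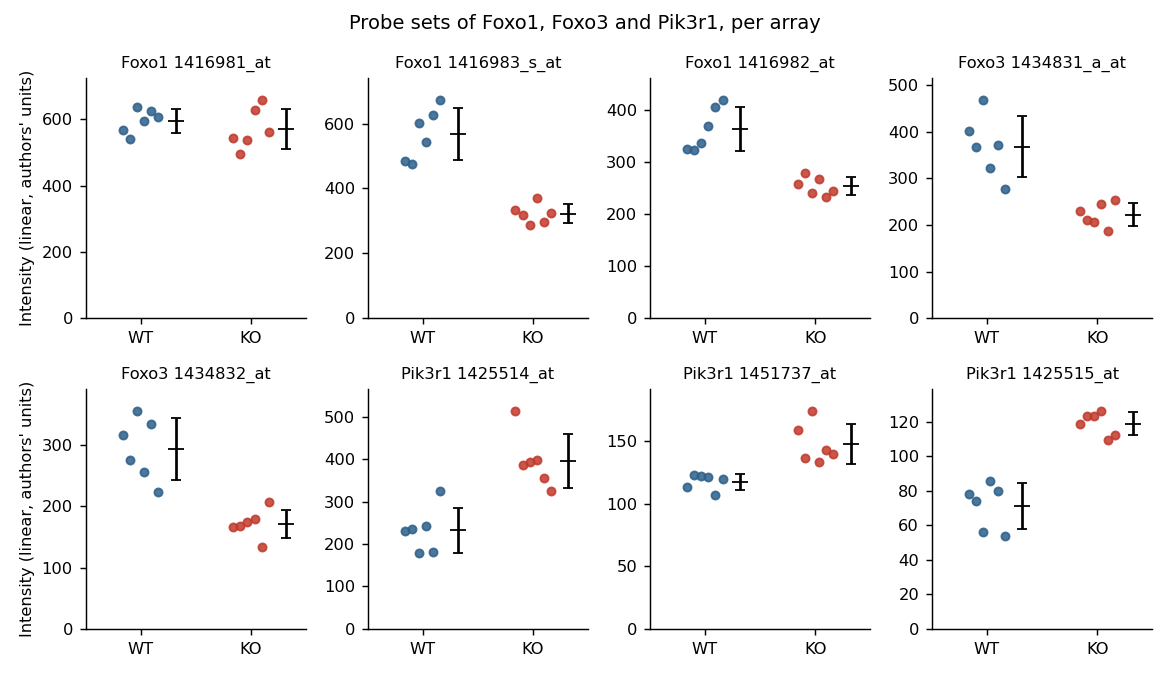
Intensity of the brighter probe sets of Foxo1, Foxo3 and Pik3r1 in wild-type (WT) and knockout (KO) livers, 1 point per array with mean and SD (n = 6 per genotype) and vertical axes starting at 0. The Foxo3 and Pik3r1 probe sets shown separate the groups, whereas the brightest Foxo1 probe set does not.

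**Figure D4:**
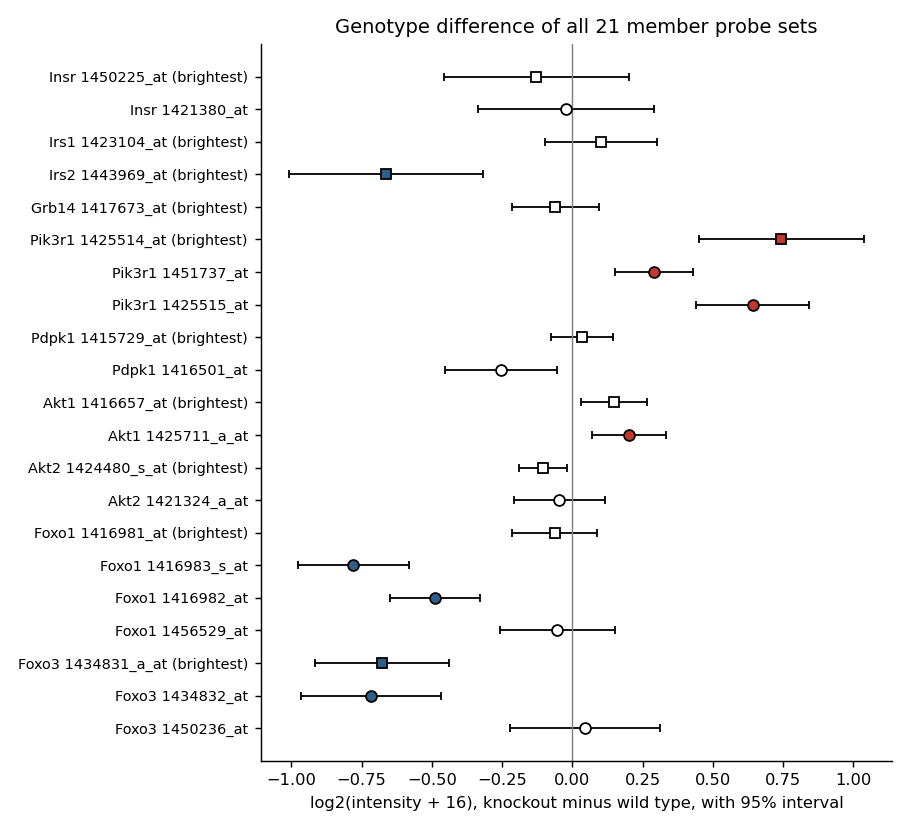
Difference between knockout and wild type in log2(intensity + 16), with its 95% interval from limma, for all 21 probe sets of the 10 genes. Among the probe sets with an adjusted p under 0.05, 4 are higher and 5 lower in the knockout.

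Other genes of the pathway came from 4 lists, in which 46 of 61 genes had a probe set of their own. Of these, 2 rose and 4 fell, a share near the 11.7% of all genes, and the median difference was 0.04. Among 13 other receptors and adaptors and 15 inhibitors none passed in limma. An unadjusted p under 0.05 was found for 2 and 3 of them, against 3249 of all 12393 genes.

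In the list of phosphatidylinositol 3-kinase, AKT and mTOR genes, 1 of 16 rose and 3 fell, against 6.46% and 5.24% of all genes. Tsc1, which encodes a subunit of the complex that restrains mTORC1, fell 1.37-fold without overlap, at 74.5 to 103.2 (median 95.5) in knockout against 109.8 to 153.3 (median 131.2) in wild-type livers (adjusted p = 0.00659). Prkcz, which encodes an atypical protein kinase C, fell 1.31-fold, at 194.3 to 269.7 (median 263.3) against 296.3 to 362.9 (median 331.8) (adjusted p = 0.00737). The dimmer probe set of Tsc1 was at 0.02 and did not pass. The other probe set of Prkcz was at -0.01 (limma adjusted p = 0.985). It was nearly as bright, with means of 269.5 in knockout and 268.5 in wild-type livers, against 249.9 and 331.8 for the one that fell. In the authors' deposited table the Prkcz probe set that fell had present calls of 66% in each genotype. Eif4ebp1, the mTORC1 target that holds back translation initiation, fell 1.23-fold (adjusted p = 0.0319, up to 0.0680 with 1 array left out), a call lost without knockout replicate 5 or wild-type replicate 3, 5 or 6. Its probe set 1417562_at, with means of 761.2 and 799.0 against 709.6 and 872.7, was at -0.07 (adjusted p = 0.487). With the probe sets of a gene averaged, none of these 3 falls passed: the difference was -0.17 for Eif4ebp1 (adjusted p = 0.184), -0.22 for Tsc1 (adjusted p = 0.194) and -0.20 for Prkcz. Prkci, the other atypical protein kinase C, rose 1.12-fold (adjusted p = 0.0472, up to 0.0964 with 1 array left out, where the call held in 2 of 12 fits).

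In the ERK branch 2 of 7 listed genes were measured. Of these, 1 rose and 1 fell, against 6.46% and 5.24% of all genes, and so few genes give no share to read. Map2k1, which encodes the kinase MEK1, rose 1.15-fold without overlap (adjusted p = 0.0210). Map2k2, which encodes MEK2, fell 1.16-fold (adjusted p = 0.0459, up to 0.0953 with 1 array left out, where the call held in 2 of 12 fits). The dimmer probe set of Map2k2 was at -0.23 (limma adjusted p = 0.0289), and the mean of its probe sets at -0.22 (adjusted p = 0.0282).

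Of 14 measured liver genes that insulin is known to repress, or FOXO1 to raise, 3 fell and none rose, against 5.24% and 6.46% of all genes, with a median difference of -0.20. Pck1, the cytosolic enzyme that commits carbon to glucose synthesis, fell 1.88-fold without overlap (adjusted p = 2.46e-05). Ppargc1a, a coactivator gene, fell 2.43-fold (adjusted p = 0.0119), with wild-type replicates 3 and 5 at 193.8 and 233.0 and all other arrays at or below 104.8. Txnip, which encodes an arrestin-like inhibitor of glucose uptake, fell 1.70-fold (adjusted p = 0.00834). G6pc, whose product releases free glucose, read 1247 to 2069 (median 1564) in knockout and 1608 to 2832 (median 2413) in wild-type livers, a difference of -0.51 (95% interval -0.86 to -0.16) that missed the threshold (adjusted p = 0.0586). G6pc passed with an added constant of 64 (0.0461), without dim probe sets (0.0293), with median centring (0.0475) and with array weights (0.0423). It also passed without knockout replicate 2 (0.0455) or 3 (0.0428) or wild-type replicate 2 (0.0210), the values in brackets being adjusted p, and over all alternatives the adjusted p ran from 0.0210 to 0.244. Igfbp1, a secreted binding protein for insulin-like growth factors, read 184.2 to 2284 (median 1385) and 1265 to 3808 (median 2357), a difference of -1.09 with a wide 95% interval of -2.20 to 0.02 (adjusted p = 0.197). Without knockout replicate 5, the lowest array, the difference of Igfbp1 was -0.60 (adjusted p = 0.248).

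Of 13 measured genes that insulin is known to raise, 3 rose and 1 fell, against 6.46% and 5.24% of all genes, with a median difference of 0.13. Srebf1, the transcription factor of lipid synthesis, rose 1.60-fold (adjusted p = 0.00159). Mid1ip1, an activator of acetyl-CoA carboxylase, rose 1.91-fold (adjusted p = 0.000616), and Angptl8, which helps inhibit lipoprotein lipase, 3.42-fold (adjusted p = 0.00483). Acaca, acetyl-CoA carboxylase itself, fell 1.53-fold at a dim probe set that read 19.3 to 40.6 (median 25.0) and 37.6 to 54.2 (median 52.9) (adjusted p = 0.00451). Acaca lies on chromosome 11 from 84129635 to 84401651, and Pctp on the same chromosome from 89982544 to 90002894 (GRCm38.p6). Srebf1, G6pc and Igfbp1 are on chromosome 11 too. The part of this position in their values was not tested. Some genes of both lists were known from earlier results to differ here, so the direction of the lists is not independent evidence.

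**Figure D5:**
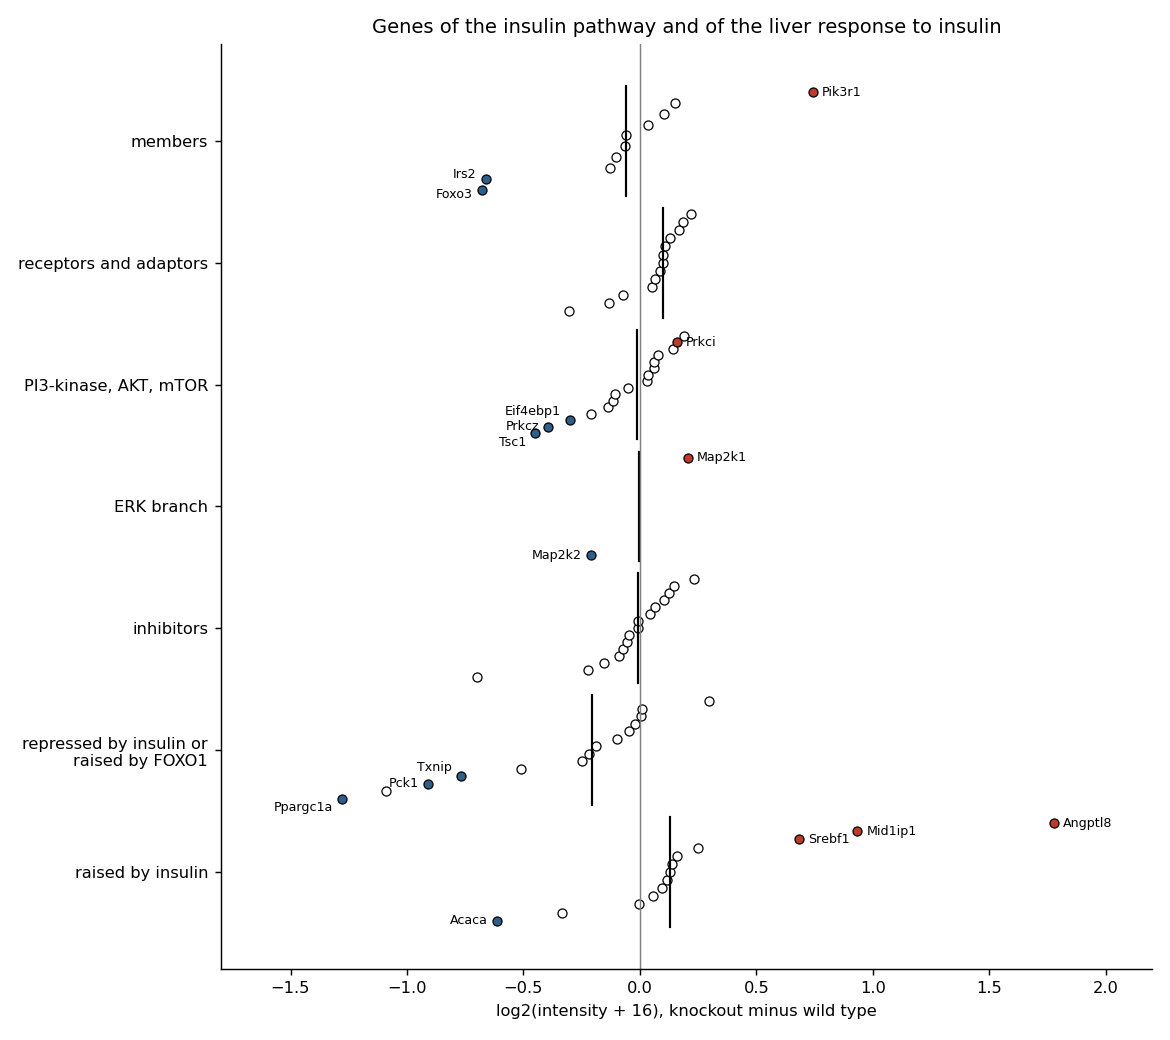
Difference between knockout and wild type in log2(intensity + 16) for each measured gene of the member list, of 4 lists of other pathway genes and of 2 lists of insulin-responsive liver genes, by the brightest probe set, with named points for an adjusted p under 0.05 and a bar at the median of each list. The median is -0.20 for genes repressed by insulin or raised by FOXO1 and 0.13 for genes raised by insulin.

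The arrays at the ends of these ranges were in part the same. Wild-type replicate 3 was the highest of all arrays for Irs2 (114.6), Foxo3 (468.0) and Igfbp1 (3808). Knockout replicate 5 was the lowest for Irs2 (23.4), Foxo3 (187.9) and Igfbp1 (184.2) and the highest for Angptl8 (1038). For Pck1 it lay inside the knockout range, at 2626.

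Genes whose variation within the groups was most like that of Irs2, Foxo3 and Pik3r1 were ranked by Pearson's r over the 12 arrays after the mean of each group had been subtracted, among genes with a mean intensity of at least 100. Closest to Irs2 were Apoa5 (r = 0.91, Spearman's rho = 0.85), Bcl2l11 (r = 0.90), Ankrd33b (r = 0.88), Rbms1 (r = 0.86) and Itih1 (r = 0.82). Without the 2 arrays farthest from the median of Irs2, r was 0.80 for Apoa5, 0.85 for Bcl2l11, 0.60 for Ankrd33b, 0.69 for Rbms1 and 0.68 for Itih1. Of these, Apoa5 (1.29-fold, adjusted p = 0.00845), Bcl2l11 (1.56-fold, adjusted p = 0.00491), Ankrd33b (1.48-fold, adjusted p = 0.00352) and Rbms1 (1.38-fold, adjusted p = 0.0112) also fell between the genotypes, and Itih1 did not pass (adjusted p = 0.536).

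Closest to Foxo3 were Rpl10a (r = 0.85), Ears2 (r = 0.84), Hps4 (r = 0.84), Mnt (r = 0.83) and Ythdc1 (r = 0.82), of which Hps4 fell 2.25-fold (adjusted p = 0.00104) and the others did not pass. Without the 2 arrays farthest from the median of Foxo3, r was 0.84, 0.81, 0.74, 0.63 and 0.64 in the same order. Closest to Pik3r1 were Otulin (r = 0.88), Ppa2 (r = 0.87), Taok1 (r = 0.85), Peli1 (r = 0.84) and Cpeb4 (r = 0.84), none of which passed between the genotypes in limma. Without the 2 arrays farthest from the median of Pik3r1, r was 0.64, 0.77, 0.70, 0.77 and 0.64 in the same order, so that Otulin no longer led. The unadjusted p of the difference was under 0.05 for Otulin (0.0423) and Peli1 (0.0143). These values are the highest among 6687 genes, in arrays that share a scaling, so they carry no p and describe these livers alone.

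Control probe sets of RNA quality moved with genotype beside all of these results. Taking the 5′ minus the 3′ probe set in log2, beta-actin lay between -1.26 and -1.05 in knockout and between -1.76 and -1.40 in wild-type livers (adjusted exact permutation p = 0.00289). Gapdh and pyruvate carboxylase were also higher in knockout, by 0.11 and 0.32, at the same adjusted p, and the transferrin receptor was at -0.02 (adjusted exact permutation p = 0.866). Of 10 stellate cell and fibroblast markers 3 rose (Rgs5, Dcn and Reln) and 0 fell, against 6.46% and 5.24% of all genes. The differences of the 10 ran from -0.07 to 0.43 (median 0.15), with 5 at an unadjusted p under 0.05. The summed intensity of the 10 was 3333 to 3997 in knockout and 2874 to 3503 in wild-type livers. Of 7 hepatocyte markers Hnf4a rose and Cps1 fell, with 3 at an unadjusted p under 0.05. The hepatocyte sums were 47808 to 50174 in knockout and 47706 to 51086 in wild-type livers. No marker was listed at 0. In limma none of the markers of macrophages (10), lymphocytes and neutrophils (10), endothelial cells (8), bile duct cells (4) or adipocytes (3) passed. In the same order, 1, 3, 3, 0 and 0 were at an unadjusted p under 0.05, against 3249 of all 12393 genes. The part of RNA quality and of cell composition in the differences of the insulin signalling genes was not tested. In pieces of liver, fewer cells of a type and less RNA per cell cannot be told apart.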

How the data were processed

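Liver RNA of 12 mice was hybridised to as many Affymetrix arrays. The authors deposited an intensity for every probe set on every array, in linear units and already summarised and scaled. The program they used is not stated in the labels or file headers. Their second table, of 727 chosen probe sets, has deposited group mean intensities, a signed fold, a t statistic and bounds (score values), p-values without adjustment and present calls in percent. Its 24 columns of single arrays were not used. Array medians were 84.0 to 91.1, and arrays correlated at 0.985 to 0.994. Symbols came from the platform annotation, and positions and promoter windows from RefSeq (GRCm38.p6).

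Without 64 control probe sets, log2(intensity + 16) was fitted by genotype with limma 3.58.1 (lmFit and eBayes, two-sided) in R 4.3.3, with Benjamini-Hochberg adjustment over 22626 probe sets. Differences within arrays were compared by two-sided exact permutation. The fit was tested on simulated data. The genes, lists and tests were chosen with earlier results of these data known. Named genes are the members, Pctp, each pathway or insulin-responsive gene past the threshold, Igfbp1, G6pc, Pck1 and Srebf1 in any case (another gene of this rule is not reported here), and the 5 genes most like each changed member. The alternatives changed the added constant (1 or 64), removed probe sets with a mean under 100, rescaled the arrays, weighted them, used an unmoderated test or a replicate block, averaged the probe sets of a gene, or left out arrays.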

Additional observations from a re-analysis of the deposited data

Results flagged for a closer look

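In 8 of 116 groups of 6 arrays, 1 array lay far from the other 5 by Dixon's criterion at 95%. Chance alone flags about 1 in 20 such groups. Above and below the rest refer here to the other arrays of the same genotype. Irs2 read 114.57 in wild-type replicate 3, above the rest. The dimmer Akt2 probe set read 149.7 in wild-type replicate 1, above the rest. Foxo3 minus Foxo1, with the brightest Foxo1 probe set, was -1.723 in knockout replicate 5, below the rest. In the same knockout liver Angptl8 read 1037.57, above the rest, and the Ppargc1a probe set 1434100_x_at 16.75, below the rest. In knockout replicate 2 a dim Pck1 probe set read 9.4, below the rest, and a dim Tsc1 probe set 37.27, above the rest. A dimmer Eif4ebp1 probe set read 880.78 in wild-type replicate 3, above the rest.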

How the results depend on the processing

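Foxo3 and Pik3r1 kept their direction and their call in every alternative run, at -0.75 to -0.45 and 0.56 to 0.84, and Insr, Irs1 and Grb14 stayed short of the threshold wherever they gave a value. Insr and Irs2 were too dim for the table without dim probe sets. Irs2 was at -0.50 (adjusted p = 0.0673) without wild-type replicates 3 and 5. Akt1 passed without dim probe sets (0.15, adjusted p = 0.0451), with probe sets averaged (0.18, adjusted p = 0.0384) and without wild-type replicate 2 (adjusted p = 0.0397), at 0.12 to 0.18 with 1 array left out. Akt2 passed with an added constant of 64 (-0.0933, adjusted p = 0.0490), without dim probe sets (-0.10, adjusted p = 0.0417) and unmoderated (adjusted p = 0.0231). With probe sets averaged Foxo1 passed (-0.35) and Pdpk1 changed sign (-0.11, adjusted p = 0.236). Over the settings other than single arrays left out, the adjusted p ran from 0.00772 to 0.0673 for Irs2, 0.0384 to 0.283 for Akt1, 0.0231 to 0.358 for Akt2 and 0.00270 to 0.916 for Foxo1. The Foxo3 minus Foxo1 shift was -0.19 and 0.10 with the dimmer Foxo1 probe sets.

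Of the members, 2 rose without dim probe sets, with probe sets averaged and without wild-type replicate 2 (1 to 2 with 1 array left out), and 1 fell without wild-type replicates 3 and 5. Over the settings other than single arrays left out, 1 to 3 members fell, and 2 fell whichever single array was left out. Of the other pathway genes, 1 rose with an added constant of 1, quantile normalization, median centring, array weights or the replicate block, 4 rose unmoderated and 0 without wild-type replicates 3 and 5. With 1 array left out 1 to 2 of them rose and 2 to 4 fell, 2 falling without wild-type replicate 3, and 1 fell with probe sets averaged. Of the genes raised by insulin, 5 rose with probe sets averaged, and 0 fell without dim probe sets. Replicate numbers recur in both genotypes, but no same-numbered pair correlated above 0.1 in its deviations from the group means. No pairing by number was seen, and none was used in the main fit, but low correlations cannot exclude one. The replicate block left 407 falling genes in all, against 649, and changed no member's call, while Eif4ebp1 (adjusted p = 0.106) and Prkci (adjusted p = 0.113) did not pass with it. Without wild-type replicates 3 and 5, 345 genes rose and 315 fell. Upward calls made up 55.2% of calls on the deposited scale, 46.7% with quantile normalization and 40.7% with median centring. Where fewer arrays or probe sets do not account for a change by construction, the cause was not tested.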

Other observations

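A brightest probe set that was not called beside dimmer ones that were, as for Foxo1, occurred in other genes too. Of 693 genes with at least 3 probe sets of a mean intensity of 100 or more, 89 had at least 2 dimmer probe sets called in the same direction. In 46 of those the brightest probe set was not called. This count took no account of the size or sign of its difference, so it can hold near misses in the same direction.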
